A study of Homo sapiens with 24 samples.

Results

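The step described here ran from 8 h to 24 h of doxycycline in C/EBPδ-inducible MIA PaCa-2 cells, and it rested on 6 of the 24 RNA-sequencing libraries of the series, 3 at each time. The libraries were taken by their group label alone, and no measured value entered that choice. MIA PaCa-2 is an established human pancreatic ductal adenocarcinoma (PDAC) line. The C/EBPδ-inducible cells carried a pCW57 Tet-On vector with the CEBPD cDNA and an mVenus marker, and they were a pool of 3 clones, so that their baseline is that of few founder cells. CTRL cells carried the same vector without the cDNA and with an mCherry marker. Both lines were given doxycycline at 2 µg/ml and harvested at 0, 8, 24 and 48 h. The labels give that dose for the 0 h libraries as well, whereas the study treated those cells as not induced. The 2 groups of the step therefore carried the same construct and the same dose and differed in the time since doxycycline was added and in time in culture. The study describes cultures seeded as triplicates and, for expression plots of these cells, biological triplicates. The labels give the 3 libraries of a group by number only, so the p-values measure the spread between cultures of one pool of cells.

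C/EBPδ is a basic leucine zipper transcription factor of the CCAAT/enhancer-binding protein family. It is known as an early, short-lived response factor in inflammation and growth arrest, and it binds DNA as a dimer with itself or with the related C/EBPα, C/EBPβ and C/EBPγ. A Tet-On promoter switches a transgene on within hours, so that early readouts hold the first response and later ones also hold what follows from it. The question put to the step was which changes of the first 8 h had passed by 24 h and which genes changed only after 8 h, while the factor itself stayed high.

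The 6 libraries held between 12731237 and 22416507 counts, and a count of 3, the floor used below, stood for 0.134 to 0.236 CPM, that is, counts scaled to a common library size. One library stood apart, the third at 8 h, which had the lowest total. Ribosomal RNA genes took 0.623% of its counts against at most 0.0374% in the others, and it differed from the other libraries at 8 h by a chi-square per gene of 12.3 and 12.5, whereas those differed from each other by 2.34. Values that rest on it are given with and without it. Among the markers of the line, the mesenchymal intermediate filament VIM was at 6259, 5960.2 and 6098 CPM at 8 h and the keratin KRT18 at 111, 103 and 109 CPM, while the epithelial adhesion gene EPCAM lay between 0.044 and 1.86 CPM in the libraries of the step. Of 14 markers of blood, endothelial, stromal, liver and islet cells, CD3E, INS and HBB were at 0 in all 6 libraries. The summed level of the 14 was 1.81 to 2.31 CPM at 8 h and 2.48 to 3.80 CPM at 24 h, and CD14 was the one member called, at a log2 fold change of 2.3. In bulk RNA, fewer cells of a kind and less RNA per cell cannot be told apart. Opposite-strand or same-strand exon overlaps, which leave a count uncertain because the strand setting of the counting is not given, are present for 67 of the genes named here, among them AXL, BHLHE40, BIRC3, BMAL2, CDH1, CDKN1A, DBP, ID2, IER3, ITGA6, KRT8, LAMB3, LYZ, PFKFB4, SLC7A11, SLCO1B3 and SNAI2.

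CEBPD itself, the induced gene, was high in all 6 libraries. Its level was 18.9, 23.4 and 22.3 CPM at 0 h, 267, 239 and 241 CPM at 8 h, 321, 303 and 297 CPM at 24 h and 212, 199.7 and 199.8 CPM at 48 h. The groups did not overlap at any time. From 0 h to 8 h the log2 fold change was 3.52, and the step to 24 h added 0.31 (SE 0.0433, edgeR adjusted p = 9.34e-06), after which the level fell by 0.61 on the log2 scale to 48 h. In CTRL cells the 12 libraries lay between 1.32 and 4.42 CPM. The cDNA and the chromosomal gene give the same reads here, so these counts do not separate them.

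Between 8 h and 24 h, 4591 of 15528 tested genes were differentially expressed (29.6%, edgeR quasi-likelihood test, false discovery rate 0.01). The DEGs were balanced in direction, with 2227 higher at 24 h (14.3%) and 2364 lower (15.2%). An analysis of variance on log2(CPM + 1) called 878. Without the third library at 8 h edgeR called 3966 genes, of which 3826 were among the 4591. Most steps were small. The median absolute log2 fold change of a DEG was 0.31, and 238 DEGs passed a 2-fold change (1.53% of the tested genes), 106 higher and 132 lower. For 7808 genes, or 50.3% of those tested, every library of one time lay above every library of the other. An exact permutation test on a single gene could not go below p = 0.1 with 3 against 3 libraries, so calls rest on the fit across all genes.

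**Figure D1:**
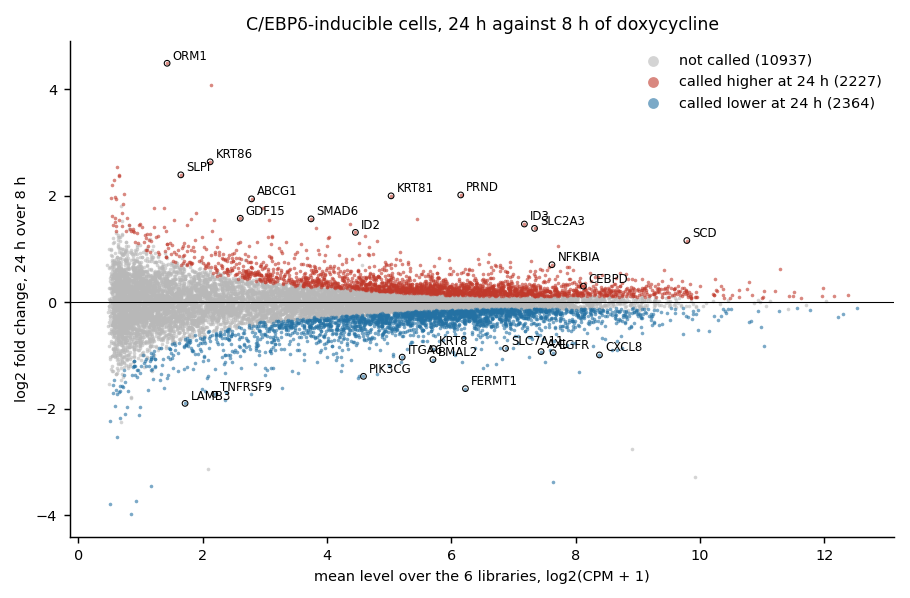
Step from 8 h to 24 h of doxycycline in C/EBPδ-inducible cells. The x axis is the mean level of each gene as log2(CPM + 1), the y axis its log2 fold change (24 h over 8 h), each point is a gene, red and blue points were called higher or lower (edgeR, false discovery rate 0.01), gray points were not called, and labels mark named genes. The cloud is symmetric about 0, with 2227 genes called higher and 2364 called lower, and the largest steps sit at low levels.

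The genes with the largest rises encode secreted and surface proteins and hair-type keratins, most of them at low levels. ORM1, the acute-phase protein orosomucoid 1, had counts of 2, 2 and 3 at 8 h and 77, 57 and 71 at 24 h. The ratio of its summed CPM was 23.4 (exact 95% interval 11.2 to 59.0, counting error only), and counts of its near-identical copy ORM2 may be shared with it. SLPI, a secreted leukocyte protease inhibitor, was at 0.736, 0.833 and 0.393 CPM at 8 h and 3.70, 3.62 and 3.52 CPM at 24 h. Its groups did not overlap (log2 fold change 2.40, SE 0.236, edgeR adjusted p = 8.1e-08), and at 48 h its mean was 3.88 CPM. TREM1, an amplifying receptor of innate immunity, was at 0.946, 0.416 and 0.393 CPM at 8 h and 2.2, 1.95 and 2.07 CPM at 24 h (log2 fold change 1.77, SE 0.302, edgeR adjusted p = 8.03e-05). ABCG1, which exports cholesterol from cells, was at 2.79, 1.98 and 2.59 CPM at 8 h and 9.20, 8.48 and 10.3 CPM at 24 h (log2 fold change 1.94, SE 0.144, edgeR adjusted p = 1.22e-09), and it rose in CTRL cells as well (log2 fold change 1.12, adjusted p = 0.00553).

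The type II hair keratins were also among the largest rises. KRT81 was at 11.8, 12.4 and 14.2 CPM at 8 h and 51.5, 49.7 and 50.6 CPM at 24 h (log2 fold change 2.00, SE 0.0665, edgeR adjusted p = 4.9e-15), with a clear gap between the times, and its neighbour and near-copy KRT86 had a log2 fold change of 2.64. KRT81 went on to a mean of 119 CPM at 48 h and stayed under 1 CPM in every CTRL library. The adenosine triphosphate-gated channel gene P2RX6 (1.77) and ENSG00000161149 (1.77), for which the tables used here hold no symbol, completed the largest rises together with RN7SL5P, a copy of the signal recognition particle RNA. RN7SL5P belongs to a family of many near-identical copies and was at 0.750, 11.9 and 6.52 CPM at 24 h, so that its log2 fold change of 4.09 rests on uneven libraries.

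PRND, which encodes the prion-like protein doppel, combined a large rise with a high level. It was at 28.7, 27.2 and 27.6 CPM at 8 h and 108, 116 and 113 CPM at 24 h, a rise that no library of either time bridged (log2 fold change 2.02, SE 0.0447, edgeR adjusted p = 7.78e-18). The gene was among those with no early change. Its mean was 28.5 CPM at 0 h, the log2 fold change at 8 h was −0.043, and the level held at 119 CPM at 48 h. In CTRL cells PRND fell over the same hours (log2 fold change −0.44, adjusted p = 0.00385), and the difference between the lines was 2.45 (adjusted p = 3.91e-12).

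The largest falls were led by epithelial junction and basement membrane genes and by receptors. LAMB3, a chain of laminin 332, was at 2.73, 1.98 and 6.20 CPM at 8 h and 1.35, 1.19 and 0.264 CPM at 24 h (log2 fold change −1.90, SE 0.402, edgeR adjusted p = 0.000716). The third library at 8 h was the highest. Without it the log2 fold change was −1.35, still called with adjusted p = 0.00424, whereas DESeq2 on all 6 libraries did not call it (adjusted p = 0.0352). CDH1, the epithelial E-cadherin, was at 4.42, 3.64 and 6.20 CPM at 8 h and 1.4, 2.14 and 1.72 CPM at 24 h (log2 fold change −1.39, SE 0.208, edgeR adjusted p = 1.79e-05, −1.19 without that library). At 0 h CDH1 was at 0, 0.137 and 0.225 CPM, so that the fall brought it part of the way back. It stayed above its 0 h level throughout, with log2 fold changes against 0 h of 5.19 at 8 h, 3.81 at 24 h and 4.85 at 48 h. The 0 h libraries lay near the floor, so the size of these fold changes is uncertain.

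TLR5, the flagellin receptor, fell from 7.25, 5.52 and 6.52 CPM to 1.65, 2.48 and 1.85 CPM (log2 fold change −1.68, SE 0.169, edgeR adjusted p = 1.06e-07). TNFRSF9, the costimulatory receptor 4-1BB, was at 5.57, 6.09 and 4.79 CPM at 8 h and 2.00, 1.53 and 1.5 CPM at 24 h (log2 fold change −1.73, SE 0.171, edgeR adjusted p = 8.53e-08), and FERMT1, the integrin activator kindlin-1, was at 112, 111 and 112 CPM at 8 h and 38, 37.4 and 33.4 CPM at 24 h (log2 fold change −1.62, SE 0.0451, edgeR adjusted p = 1.95e-16). None of these genes had overlapping groups. FERMT1 also fell in CTRL cells, with a log2 fold change of −1.08 and an interaction of −0.54. ARHGAP31, a GTPase-activating protein for CDC42 and RAC1, was at 9.20, 8.43 and 9.26 CPM at 8 h and 2.90, 3.00 and 2.29 CPM at 24 h, a fall of 1.71, and its step differed from that of CTRL cells by −1.37 (interaction, adjusted p = 0.000159). Also among the 10 largest falls were the transmembrane collagen COL13A1 (−1.84, against −2.86 in CTRL cells), the actin-associated coronin CORO2B (−1.62), the myosin pseudogene MYH16 (−1.67) and the antisense transcript DNAAF3-AS1 (−1.65).

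DEGs of the step were sorted by what came before, into genes that reversed an early change and genes that changed late. The rules differ in strictness, so their counts are not set against each other. Of 2179 genes that rose with separate groups and a mean of at least 1 CPM, 1368 had been called lower at 8 h than at 0 h (low at 8 h), and of 2320 such genes that fell, 1405 had been called higher at 8 h (high at 8 h). These comparisons share the 8 h libraries, so a deviation in that group enters both. A delayed gene was one called in the same direction at 24 h against 0 h with an absolute log2 fold change under 0.1 at 8 h, and 245 of the 2179 and 280 of the 2320 met that rule. The background of these comparisons was 30.5% of genes called at 8 h against 0 h (14.6% higher and 15.8% lower) and 15.5% at 24 h against 0 h (7.33% higher and 8.14% lower).

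Inhibitors of DNA binding and of SMAD signalling were mostly low at 8 h, with 8 of 11 tested genes called lower than at 0 h and none higher. ID proteins are helix-loop-helix factors that keep other such factors off DNA and are classic targets of bone morphogenetic protein signalling, and SMAD6 and SMAD7 are its feedback inhibitors. Of 11 tested members of this list, 7 rose in the step and 2 fell, with a median log2 fold change of 0.50 beside 0.002 over all genes. ID3 was at 193, 198 and 201 CPM at 0 h, 77.4, 73.7 and 77.7 CPM at 8 h, 217, 206 and 209 CPM at 24 h and 230.2, 212 and 207 CPM at 48 h. The 8 h libraries thus lay far below those of every other time (log2 fold change 1.47, SE 0.0383, edgeR adjusted p = 8.71e-17).

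ID2 was at 13, 10.1 and 13.3 CPM at 8 h and 26.2, 31.1 and 32.1 CPM at 24 h (log2 fold change 1.32, SE 0.0966, edgeR adjusted p = 1.1e-09), after 37.8, 36.4 and 36.3 CPM at 0 h. ID1 had a smaller swing, from 96.1, 93.6 and 94.3 CPM to 151, 149 and 148 CPM (log2 fold change 0.66, SE 0.0351, edgeR adjusted p = 8.5e-12). SMAD6 was at 5.47, 6.66 and 6.75 CPM at 8 h and 19.3, 17.1 and 19.1 CPM at 24 h (log2 fold change 1.57, SE 0.10, edgeR adjusted p = 1.32e-10). Its groups were separated by more than 10 CPM, and its mean before induction was 15.5 CPM. SMAD7 rose by 0.77 and the SMAD co-repressor gene SKIL by 0.50. In CTRL cells ID3 rose by 0.37 (adjusted p = 0.00656), from 103 to 135 CPM on average, and the difference between the lines was called for ID1 (0.57), ID2 (0.89), ID3 (1.10) and SMAD6 (0.91). TGFBI, an extracellular matrix protein named for its response to TGF-β, was a member that fell (−1.25).

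The 250 bases before the RefSeq start of SMAD6, ID1 and ID2 (GRCh38.p14, each on the plus strand) are shown because these 3 moved together and because the SMAD6 window holds a palindromic C/EBP motif. ID3, SMAD7 and SKIL also rose in the step, and their windows are not shown. Capitals mark matches on either strand to TTGCGCAA, to TTGCNNCAA, to TGATGCAA or to CCAAT.
SMAD6, chr15:66701986-66702235: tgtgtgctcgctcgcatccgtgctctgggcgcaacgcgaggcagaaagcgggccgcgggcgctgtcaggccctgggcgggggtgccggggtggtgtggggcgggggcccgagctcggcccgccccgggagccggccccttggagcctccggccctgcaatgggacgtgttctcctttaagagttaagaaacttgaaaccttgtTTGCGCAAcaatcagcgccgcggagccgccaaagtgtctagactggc
ID1, chr20:31605039-31605288: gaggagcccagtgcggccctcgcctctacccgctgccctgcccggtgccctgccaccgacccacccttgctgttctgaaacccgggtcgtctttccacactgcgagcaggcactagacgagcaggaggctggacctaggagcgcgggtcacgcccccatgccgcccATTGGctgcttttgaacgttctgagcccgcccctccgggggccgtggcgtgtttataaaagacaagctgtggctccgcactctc
ID2, chr2:8681806-8682055: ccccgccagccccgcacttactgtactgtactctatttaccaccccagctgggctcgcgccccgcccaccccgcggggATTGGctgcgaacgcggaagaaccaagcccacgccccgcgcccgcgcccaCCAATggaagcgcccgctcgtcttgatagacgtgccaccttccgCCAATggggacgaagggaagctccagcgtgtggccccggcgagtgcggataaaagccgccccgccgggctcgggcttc
The SMAD6 window has 1 match to TTGCGCAA, which starts 47 bases before the start site, and none to CCAAT. The ID1 and ID2 windows have no match to TTGCGCAA, TTGCNNCAA or TGATGCAA and have 1 and 3 matches to CCAAT. Other forms of a C/EBP site were not searched. TTGCGCAA has 1 base less between its arms than TTGCNNCAA, so a match to one is not a match to the other.

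A promoter was matched for 10218 of the 15528 tested genes. TTGCGCAA occurred in 0.414% of the matched promoters of genes that rose, in 0.265% of those of genes that fell, in 0.206% of all tested genes and in 0.128% of all 27305 promoters of the table. For TTGCNNCAA, a variant with 1 more base between the arms, the shares were 1.18%, 1.17%, 1.31% and 2.02%. This variant is not the C/EBP palindrome, and its shares are not read as those of C/EBP sites. For TGATGCAA, the C/EBP-ATF composite element, they were 0.473%, 0.372%, 0.44% and 0.923%, and for CCAAT, 37.6%, 36.8%, 36.8% and 35.7%. SMAD6 was thus 1 of 7 risers with TTGCGCAA in this longer window, and 5 genes that fell had it. For 1 of the 7 risers the match lay after the start, at position 14.

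**Figure D2:**
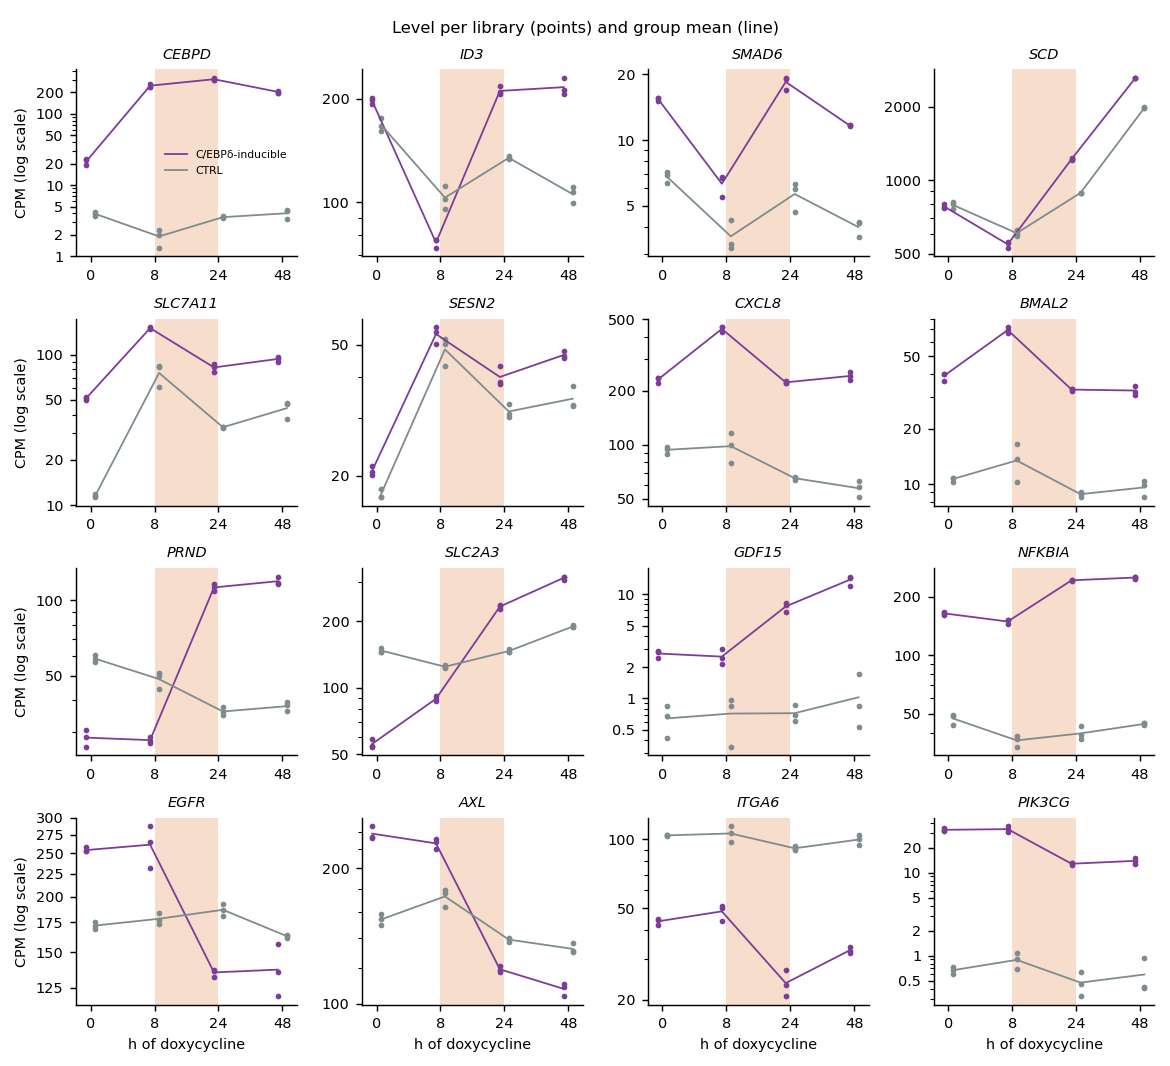
Levels of 16 named genes over the time course. Each panel plots CPM on a log axis against hours of doxycycline (times evenly spaced, not to scale), points are libraries, lines join group means, purple is C/EBPδ-inducible cells, gray is CTRL cells, and the shaded band is the step from 8 h to 24 h. ID3 and SMAD6 dip at 8 h, CXCL8, BMAL2 and SLC7A11 peak there, and PRND, EGFR, AXL and PIK3CG change only after it.

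Lipid synthesis genes mostly rose in the step, after a mixed first change. At 8 h against 0 h, 5 of 11 genes of fatty acid synthesis were lower and 3 higher, and 7 of 22 of cholesterol synthesis and uptake were lower and 3 higher. In the step, of 11 tested genes of fatty acid synthesis 7 rose and 1 fell (median 0.29), and of 22 of cholesterol synthesis and uptake 12 rose and 1 fell (median 0.31). SCD, the stearoyl-CoA desaturase, was at 557, 529 and 555 CPM at 8 h and 1206, 1222 and 1233 CPM at 24 h (log2 fold change 1.16, SE 0.0259, edgeR adjusted p = 7.78e-18), and its mean went from 782 CPM at 0 h to 2622 CPM at 48 h. FASN, the fatty acid synthase, was at 546, 548 and 539.6 CPM at 8 h and 888, 785 and 801 CPM at 24 h (log2 fold change 0.60, SE 0.0361, edgeR adjusted p = 5.18e-11). SREBF1, the transcription factor that drives these enzymes, rose by 0.69 and the carboxylase ACACA by 0.51, whereas the elongase ELOVL6 fell by 0.27. The call for ELOVL6 was lost when any of 5 of the 6 libraries was left out, at log2 fold changes from −0.29 to −0.22.

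In cholesterol synthesis, the last-step reductase DHCR7 was at 28.9, 28.8 and 28.6 CPM at 8 h and 47.1, 51.0 and 47.6 CPM at 24 h (log2 fold change 0.76, SE 0.0529, edgeR adjusted p = 4.74e-10). The mevalonate kinase MVK rose by 0.69 and the sterol sensor partner INSIG1 by 0.54, while the desaturase SC5D fell by 0.47. The call for SC5D was lost without the first (−0.38) or second (−0.45) library at 24 h and without the second at 8 h (−0.38). SCD and FASN rose more than in CTRL cells (interaction 0.62 and 0.43, adjusted p = 2.05e-07 and 0.00457). For DHCR7, INSIG1 and SREBF1 the CTRL steps were called too, at 0.59, 0.74 and 0.57.

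The replication-dependent histones moved as a block. Their mRNAs carry no poly(A) tail and are made in S phase, and this rRNA-depleted total RNA retains them. Of 65 members 51 were tested, and 49 rose and none fell, with log2 fold changes from 0.25 to 0.89 and a median of 0.51. Their summed level was 5644 to 6492 CPM at 8 h and 7812 to 9083 CPM at 24 h, with no overlap. H4C12 (0.89), H3C13 (0.88), H4C4 (0.78) and H4C15 (0.72) had the largest steps. From 0 h to 8 h, 47 of 50 tested members fell, and from 24 h to 48 h 48 fell. In CTRL cells 3 of 51 were called over the same step, with a median of 0.22, and the difference between the lines was called for 4, all higher in C/EBPδ-inducible cells. Histone genes are near-identical copies, so the split of reads among them is uncertain.

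Ribosomal protein genes behaved alike with smaller steps. Of 80 tested genes 69 rose and none fell (median 0.23), led by RPL13A (0.44), RPS28 (0.42), RPS15 (0.37) and RPS19 (0.35). In CTRL cells 0 of the 80 were called by edgeR, 13 had an unadjusted p under 0.05 and DESeq2 called 0. The interaction was called for 2 of them. Under an analysis of variance on log2(CPM + 1), 13 of the 80 were called in the step. Many of these genes have processed pseudogenes that can take their reads.

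Glycolytic genes rose in 14 of 20 tested cases and fell in 1 (median 0.21). SLC2A3, the neuronal-type glucose transporter, was at 88.3, 91.5 and 87.2 CPM at 8 h and 235, 237 and 227 CPM at 24 h (log2 fold change 1.39, SE 0.0367, edgeR adjusted p = 9.04e-17), and PFKFB4, a regulator of phosphofructokinase, was at 5.62, 4.16 and 4.71 CPM at 8 h and 10.7, 9.87 and 10.3 CPM at 24 h (log2 fold change 1.09, SE 0.117, edgeR adjusted p = 2.57e-07). Both had separate groups and both rose more than in CTRL cells, by 1.16 and 0.91. The aldolases ALDOC and ALDOA rose by 0.64 and 0.31, and the hexokinase HK2 fell by 0.22.

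DNA replication and G1/S genes rose in 11 of 30 cases and none fell (median 0.09). E2F2 (0.40), the methylation maintenance factor UHRF1 (0.29), the flap endonuclease FEN1 (0.28) and the helicase subunit MCM7 (0.26) had the largest steps. Mitotic genes went mostly the other way, with 2 of 30 higher and 15 lower (median −0.11). NUF2, a kinetochore component, fell from 105, 100.5 and 103 CPM to 61.0, 66.3 and 63.5 CPM (log2 fold change −0.69, SE 0.0394, edgeR adjusted p = 2.6e-11), and the cytokinesis scaffold ANLN fell by 0.43, the kinetochore motor CENPE by 0.39 and the checkpoint kinase TTK by 0.37. KIF20A and BIRC5 were the 2 that rose, by 0.16 and 0.14. Leaving out 1 library ended the call for BIRC5 in 5 of 6 cases (0.11 to 0.15) and for KIF20A without the second (0.15) or the third (0.14) library at 8 h. Of 6 CDK inhibitors 1 was called, beside 29.6% of all tested genes. CDKN1A, which encodes p21, was at 18.9, 17.2 and 20.2 CPM at 8 h and 26.5, 24.1 and 27.1 CPM at 24 h (log2 fold change 0.48, SE 0.0745, edgeR adjusted p = 2.93e-05), and its step differed from that of CTRL cells by 0.97 (adjusted p = 0.00149).

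**Figure D3:**
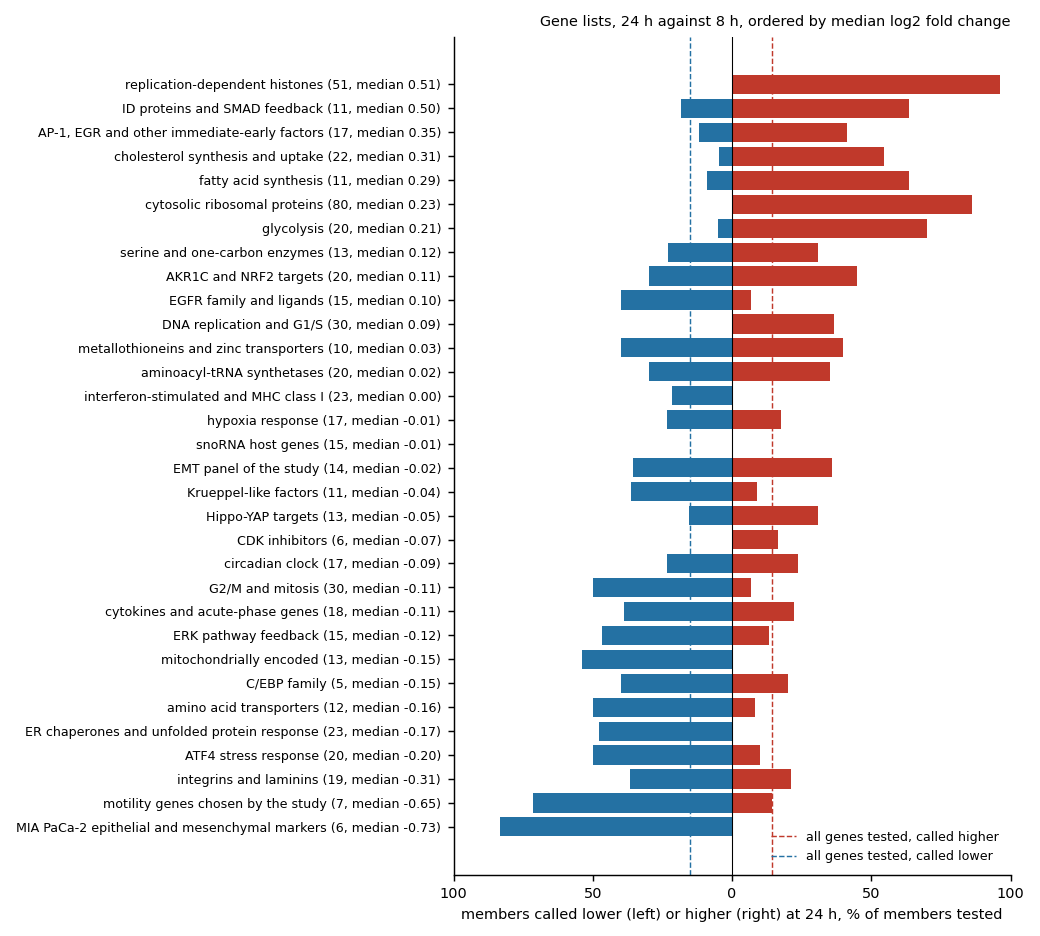
Share of each gene list called in the step. Bars to the left show the percentage of tested members called lower at 24 h and bars to the right the percentage called higher, lists are ordered by their median log2 fold change, and dashed lines mark all tested genes (15.2% lower, 14.3% higher). Histones and ribosomal proteins stand at the upper end, with 49 of 51 and 69 of 80 members higher.

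Stress genes of the ATF4 pathway were mostly high at 8 h, with 16 of 20 called higher than at 0 h and none lower. ATF4 is translated when amino acids run short or the endoplasmic reticulum is stressed, and it pairs with C/EBP factors on its targets. Of 20 tested members 2 rose and 10 fell in the step (median −0.20), and of 12 amino acid transporters 1 rose and 6 fell (median −0.16). SLC7A11, the cystine importer, was at 149.6, 152 and 148 CPM at 8 h and 77.1, 82.8 and 86.8 CPM at 24 h (log2 fold change −0.86, SE 0.0410, edgeR adjusted p = 1.46e-12), after a mean of 51.5 CPM at 0 h. SLC1A4, a transporter of neutral amino acids, was at 53.9, 58.7 and 54.4 CPM at 8 h and 37.2, 37.3 and 33.2 CPM at 24 h (log2 fold change −0.63, SE 0.0541, edgeR adjusted p = 1.11e-08). The leucine sensor gene SESN2 was at 54.8, 50.4 and 56.5 CPM at 8 h and 43.2, 38.5 and 38 CPM at 24 h (log2 fold change −0.43, SE 0.0561, edgeR adjusted p = 3.64e-06). In all 3 genes the groups were separate and the 24 h level stayed above the 0 h level, with log2 fold changes at 24 h against 0 h of 0.68, 1.07 and 0.95.

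The activin subunit INHBE fell by 0.69, the cystathionine lyase CTH by 0.60 and the lipoprotein receptor VLDLR by 0.54. CTRL cells showed called falls of SLC7A11 (−1.21), SLC1A4 (−0.58), SESN2 (−0.65), CTH (−0.50) and VLDLR (−0.61) over the same hours, and the interaction was called for none of these 5. The exceptions that rose were GDF15, a stress cytokine described below, and DDIT4, an inhibitor of mTORC1, at 175, 177 and 187 CPM at 8 h and 220.3, 210.2 and 223 CPM at 24 h (log2 fold change 0.28, SE 0.0384, edgeR adjusted p = 5.65e-06). DDIT4 fell in CTRL cells (−0.40), and the difference was called (0.68, adjusted p = 5.37e-05).

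The enzymes that these stress genes supply were mixed. Of 13 serine and one-carbon enzymes 4 rose and 3 fell (median 0.12), with PHGDH, the first enzyme of serine synthesis, up by 0.31 and the mitochondrial folate enzyme MTHFD2 down by 0.24. Of 20 aminoacyl-tRNA synthetases 7 rose and 6 fell (median 0.02), from QARS1 (0.29) and VARS1 (0.28) to SARS1 (−0.36) and GARS1 (−0.26). Chaperones and unfolded protein response genes moved one way, with 0 of 23 higher and 11 lower (median −0.17). XBP1, the transcription factor of that response, was at 255, 241 and 258 CPM at 8 h and 188, 185 and 182 CPM at 24 h (log2 fold change −0.44, SE 0.0373, edgeR adjusted p = 1.12e-08), and the chaperone DNAJB9 fell by 0.78, SEL1L of the degradation complex by 0.43 and the kinase inhibitor DNAJC3 by 0.34.

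Some growth factor ligands and inflammatory genes were high at 8 h. Of 18 cytokine and acute-phase genes 8 were called higher at 8 h than at 0 h and 5 lower, and of 15 genes of the EGFR and TAM receptor families and their ligands 5 were higher and 3 lower. HBEGF, a ligand of the EGF receptor, was at 18.8, 16.8 and 19.4 CPM at 8 h and 9.10, 8.15 and 7.97 CPM at 24 h (log2 fold change −1.11, SE 0.0910, edgeR adjusted p = 5.62e-09), and the ligand EREG fell by 0.47. The ligands did not all fall, since the 1 gene of that list called higher in the step encodes another ligand of this receptor. HBEGF also fell in CTRL cells (log2 fold change −0.54). CXCL8, which encodes the neutrophil chemokine interleukin 8, was at 451, 425 and 452 CPM at 8 h and 221, 228 and 220.0 CPM at 24 h, with the 24 h libraries close to the 222, 236 and 235 CPM of 0 h (log2 fold change −0.99, SE 0.0363, edgeR adjusted p = 2.09e-14). Of 18 tested cytokine and acute-phase genes 4 rose and 7 fell (median −0.11). BIRC3, a ubiquitin ligase of NF-κB signalling, was at 47.3, 49.2 and 49.9 CPM at 8 h and 21.4, 24.2 and 21.4 CPM at 24 h (log2 fold change −1.12, SE 0.0591, edgeR adjusted p = 7.49e-12), and the NF-κB feedback deubiquitinase gene TNFAIP3 fell by 0.73. NFKBIA, the inhibitor that holds NF-κB in the cytoplasm, went the other way, at 151, 144 and 151 CPM at 8 h and 244, 241 and 243 CPM at 24 h (log2 fold change 0.71, SE 0.0356, edgeR adjusted p = 3.73e-12), and rose more than in CTRL cells by 0.59 (adjusted p = 0.000163). The macrophage growth factor CSF1 rose by 0.55.

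Clock genes showed opposite moves. BMAL2, a partner of CLOCK, was at 69.4, 67.0 and 71.9 CPM at 8 h and 33.1, 32.3 and 33.1 CPM at 24 h (log2 fold change −1.07, SE 0.0455, edgeR adjusted p = 2.54e-13), whereas BHLHE40, a repressor of clock targets, was at 16.2, 16.3 and 15.8 CPM at 8 h and 31.5, 35.0 and 32.9 CPM at 24 h (log2 fold change 1.04, SE 0.0679, edgeR adjusted p = 1.84e-10) and the output factor DBP was at 3.63, 3.44 and 4.08 CPM at 8 h and 8.10, 7.2 and 7.66 CPM at 24 h (log2 fold change 1.06, SE 0.125, edgeR adjusted p = 9.09e-07). All 3 had separate groups. PER1 rose by 0.69, and NR1D1 and NR1D2, the REV-ERB repressors, fell by 0.45 and 0.52. Of 17 tested clock genes 4 rose and 4 fell (median −0.09). The steps of BHLHE40 and NR1D2 differed from those of CTRL cells, by 0.79 and −0.78.

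Genes that rose only after 8 h were led by PRND, followed by GDF15, IER3, the pseudogene WFDC21P (1.03) and the thyroid hormone deiodinase DIO2 (0.92). GDF15 was at 2.45, 2.84 and 2.81 CPM at 0 h, 3.00, 2.45 and 2.12 CPM at 8 h, 6.80, 8.29 and 7.84 CPM at 24 h and 12.1, 14.4 and 14.8 CPM at 48 h (step: log2 fold change 1.58, SE 0.147, edgeR adjusted p = 3.45e-08). The 0 h and 8 h libraries overlapped and those of 24 h lay above both. IER3, an immediate-early gene linked to survival, was at 9.36, 9.79 and 9.97 CPM at 8 h and 22.3, 18.1 and 20.1 CPM at 24 h (log2 fold change 1.06, SE 0.0920, edgeR adjusted p = 1.39e-08). Other immediate-early factors differed among themselves, with 7 of 17 higher and 2 lower (median 0.35). JUND (0.83), JUNB (0.71) and EGR1 (0.60) rose, and JUN (−0.68) and FOSL1 (−0.42) fell.

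Receptors and adhesion genes that have a place in motility fell in the step. EGFR was at 252, 258 and 253 CPM at 0 h, 232, 265 and 288 CPM at 8 h and 136, 132 and 137 CPM at 24 h (step: log2 fold change −0.94, SE 0.0538, edgeR adjusted p = 2.45e-11). The receptor kinase gene AXL was at 232, 220.3 and 228 CPM at 8 h and 119, 118 and 121 CPM at 24 h (log2 fold change −0.92, SE 0.0356, edgeR adjusted p = 4.87e-14), and ETS1, a transcription factor of invasive cells, was at 185, 181 and 185 CPM at 8 h and 118, 118 and 116 CPM at 24 h (log2 fold change −0.65, SE 0.0344, edgeR adjusted p = 8.64e-12). In these 3 genes every library at 24 h lay below every library at 8 h. EGFR and AXL fell more than in CTRL cells, by 1.00 (adjusted p = 1.3e-06) and 0.60 (adjusted p = 1.15e-05).

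ITGB4, the integrin β4 subunit, was at 34.5, 37.1 and 36.0 CPM at 8 h and 22.1, 22.8 and 21.8 CPM at 24 h, after a first fall from 49.9 CPM at 0 h (step: log2 fold change −0.69, SE 0.0604, edgeR adjusted p = 1.61e-08). Its interaction was −0.96 (adjusted p = 2.37e-06). The guanine exchange factor gene NET1 fell by 0.36, and the actin-severing gelsolin gene GSN rose by 0.35, a call that was lost without the third library at 24 h (0.29). Of the 7 motility genes that the study singled out 1 rose and 5 fell (median −0.65), and the interaction was called for 6, all lower in C/EBPδ-inducible cells. Against 0 h all 7, GSN included, were called lower at 24 h (log2 fold changes from −1.165 to −0.596) and at 48 h. The rise of GSN in the step thus left it below its 0 h level. The study chose these genes on the same series, so these counts are not independent evidence of a direction.

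Among integrins and laminins 4 of 19 tested genes rose and 7 fell (median −0.31). ITGA6, the partner of integrin β4, was at 44.2, 49.9 and 51.3 CPM at 8 h and 20.7, 27.0 and 23 CPM at 24 h (log2 fold change −1.03, SE 0.0761, edgeR adjusted p = 1.23e-09), with a difference from CTRL cells of −0.81 (adjusted p = 0.000202), and ITGA10 (−0.91) and ITGA3 (−0.56) fell as well. The laminin chain genes LAMA5 (0.50) and LAMB1 (0.27) and the fibronectin receptor subunit ITGA5 (0.28) rose. Simple keratins followed the falls. KRT8 was at 67.1, 66.8 and 65.6 CPM at 8 h and 34.5, 40.1 and 34.7 CPM at 24 h (log2 fold change −0.87, SE 0.0524, edgeR adjusted p = 5.81e-11), and KRT18 and KRT19 fell by 0.60 and 0.90.

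The panel of epithelial and mesenchymal markers that the study examined in these cells had 5 of 14 tested genes higher and 5 lower (median −0.02). SNAI2, a repressor of epithelial genes, was at 1.42, 1.35 and 1.49 CPM at 8 h and 2.95, 3.10 and 3.08 CPM at 24 h (log2 fold change 1.11, SE 0.194, edgeR adjusted p = 0.000109), and collagen COL4A1 rose by 0.36, while ZEB1 fell by 0.35 and CDH1 by 1.39. PIK3CG, the catalytic phosphoinositide 3-kinase γ subunit, was among the delayed falls, at 33.2, 36.2 and 30.5 CPM at 8 h and 13, 12.3 and 13 CPM at 24 h (log2 fold change −1.39, SE 0.0754, edgeR adjusted p = 1.16e-11), after 32.2, 34.3 and 31.5 CPM at 0 h. The others were the kinase gene SBK2 (−1.45), MALL of the MAL proteolipid family (−1.36), CAVIN3 of the caveolar coat (−1.28) and TGFBI. None of these libraries overlapped between 8 h and 24 h.

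Further falls were seen in NT5E, the surface 5′-nucleotidase CD73, at 396, 389 and 399 CPM at 8 h and 219, 231 and 221 CPM at 24 h (log2 fold change −0.82, SE 0.0355, edgeR adjusted p = 3.63e-13), and in KLF6, a zinc finger factor, at 310.5, 305 and 312 CPM at 8 h and 179, 179 and 187 CPM at 24 h (log2 fold change −0.76, SE 0.0359, edgeR adjusted p = 1.38e-12). Both were clear of overlap. KLF6 also fell in CTRL cells, with a log2 fold change of −0.40. Over all tested genes 14.3% rose and 15.2% fell, the background for the lists that follow. Of 13 tested Hippo-YAP targets 4 rose and 2 fell (median −0.05), and AMOTL2, a binding partner of YAP, rose by 0.59. Of 11 Krüppel-like factors 1 rose and 4 fell (median −0.04), with KLF4 lower by 0.53. Of 15 ERK feedback genes 2 rose, CCND1 (0.41) and SPRY1 (0.19), and 7 fell, among them ETS1 and the phosphatases DUSP1 (−0.44) and DUSP5 (−0.40), with a median of −0.12. Of 15 tested genes of the EGFR and TAM receptor families and their ligands 1 rose and 6 fell, although the median of the list was above 0 (0.10).

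Oxidation and metal genes were mixed. Of 20 tested NRF2-linked genes 9 rose and 6 fell (median 0.11). The pentose phosphate enzymes TKT (0.55) and PGD (0.45), the aldo-keto reductase AKR1C2 (0.46) and ferritin heavy chain FTH1 (0.48) rose, while the glutathione synthesis subunit GCLM (−0.57) and the haem oxygenase HMOX1 (−0.31) fell. The interaction was called for 7 of these genes, all higher in C/EBPδ-inducible cells. HMOX1 fell in CTRL cells as well (−1.10). Of 10 metallothionein and zinc transport genes 4 rose, the metallothioneins MT1A (0.84), MT1G (0.68), MT1X (0.64) and MT1E (0.38), and 4 fell, including the zinc exporter SLC30A1 (−0.47). Metallothioneins and the AKR1C genes are close paralogs.

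Hypoxia-linked genes had 3 of 17 higher and 4 lower (median −0.01). Of all tested genes 14.3% were higher and 15.2% lower, the background for each list of this paragraph. The peptide hormone gene ADM rose by 0.71, the apelin gene APLN fell by 1.61 at 2.26, 2.19 and 2.75 CPM at 8 h and 1.10, 0.715 and 0.528 CPM at 24 h, and VEGFA fell by 0.34. Of 3 glucose-responsive arrestins ARRDC2 rose (0.41) and ARRDC3 (−0.60) and TXNIP (−0.19) fell. Of 23 interferon-stimulated and MHC class I genes 0 rose and 5 fell, led by OAS3 (−1.07) and RIGI (−0.42), and 2 rose under upper-quartile scaling. Of 13 mitochondrially encoded genes 0 rose and 7 fell (median −0.15). Of 15 snoRNA host genes 0 were called by edgeR, 7 had an unadjusted p under 0.05, and DESeq2 called 0. In the C/EBP family CEBPB fell by 0.31 and CEBPG by 0.33, and CEBPD alone of 5 tested members rose.

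**Figure D4:**
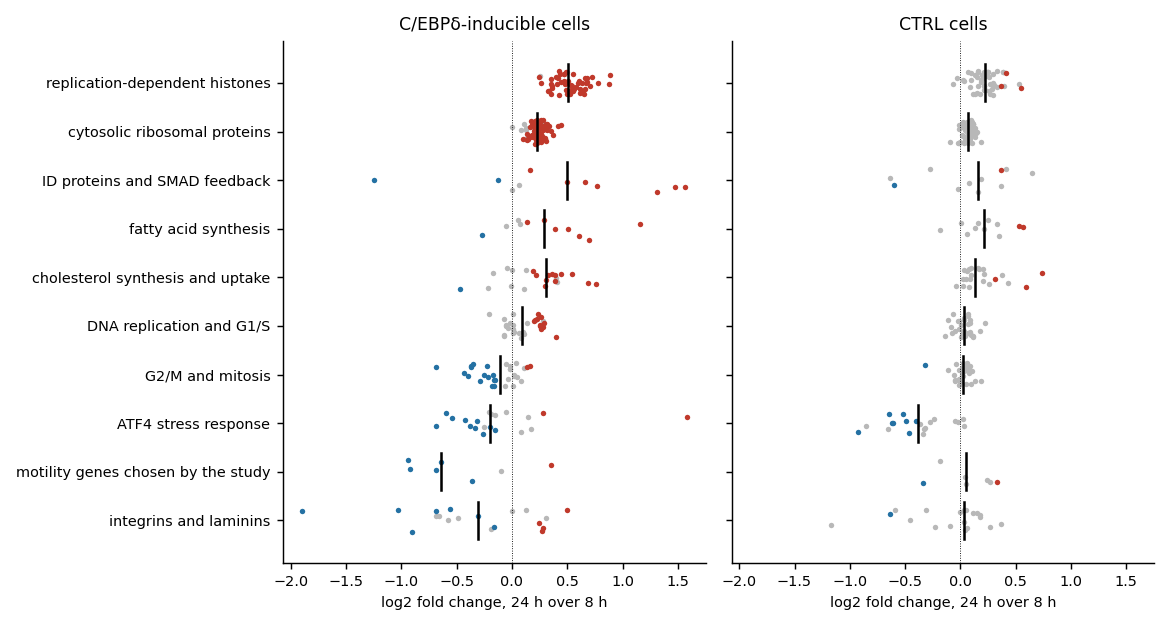
Steps of single members of 10 gene lists in both lines. Each point is a tested gene, the x axis is its log2 fold change from 8 h to 24 h, the left panel is C/EBPδ-inducible cells and the right panel CTRL cells, black lines are medians, red and blue points were called higher or lower, and gray points were not called. The histones all lie above 0 in C/EBPδ-inducible cells, with a median of 0.51 against 0.22 in CTRL cells.

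The same hours in CTRL cells gave far fewer calls. There 375 of 15339 tested genes were differentially expressed (2.44%), 164 higher (1.07%) and 211 lower (1.38%), and 29.2% of the genes had separate groups. The CTRL comparison was the less steady of the 2, since leaving out 1 library at a time gave between 74 calls (without the third at 24 h) and 1195 (without the first at 8 h). Its 8 h libraries differed from each other by a chi-square per gene of 6.40, 16.7 and 5.93. With all 24 libraries in the model the counts were 1374 in CTRL and 3593 in C/EBPδ-inducible cells. The few CTRL calls also limit how large the shares of the first list below can be. Among the genes tested in both lines, 2185 rose in C/EBPδ-inducible cells, and 103 of them also rose in CTRL cells, which is 4.71% of the first list and 64.0% of the second. Of 2327 that fell, 160 fell in CTRL cells too (6.88% and 76.2%). Opposite calls were 4 and 10. Over 14828 genes (genes do not stand for replicates), the steps of the lines had a Pearson r of 0.386, and no library is shared between them.

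The difference between the lines was tested itself. The interaction of line and time was called for 501 of 16332 genes (3.07%), 187 with a higher (1.14%) and 314 with a lower (1.92%) step in C/EBPδ-inducible cells. Leaving out 1 library at a time gave between 261 calls (without the first CTRL library at 24 h) and 2075 (without the third CTRL library at 8 h). The split of the 501, 37.3% higher, depended on scaling, since upper-quartile scaling gave 245 higher and 256 lower (48.9%). The lines differed before the step as well. KRT8 had a mean of 74.3 CPM in C/EBPδ-inducible cells and 1559.8 CPM in CTRL cells at 0 h, and AKR1C2 had 176 and 5.72 CPM, so that equal changes need not start from equal levels.

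The largest positive differences, besides RN7SL5P (6.21), were those of LYZ, PRND, the peroxisomal oxidase ACOX2 and the organic anion exporter ABCC3. LYZ, which encodes lysozyme, was at 0, 0.104 and 0.157 CPM at 8 h and 2.40, 1.95 and 0.396 CPM at 24 h in C/EBPδ-inducible cells and at 2.90, 3.71 and 2.48 CPM at 8 h and 1.33, 2.10 and 1.49 CPM at 24 h in CTRL cells. Its 8 h libraries in C/EBPδ-inducible cells held 0, 2 and 2 counts, so that the size of its interaction of 5.08 is uncertain. ABCC3 was at 5.78, 5.93 and 5.42 CPM at 8 h and 12.7, 13.3 and 11.8 CPM at 24 h (log2 fold change 1.14, SE 0.101, edgeR adjusted p = 1.96e-08), with an interaction of 1.63 (adjusted p = 1.73e-05). ACOX2 had an interaction of 1.83 beside a fall of 1.52 in CTRL cells, while its own step of 0.31 was not called (adjusted p = 0.012).

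The largest negative differences were ENOX1 (−2.83), a surface oxidase, ELOVL7 (−2.09), a fatty acid elongase, the hepatic-type anion importer SLCO1B3 (−1.63), the tubulin TUBB2B (−1.49) and the adaptor SKAP2 (−1.44). For ENOX1, TUBB2B and SKAP2 the steps in C/EBPδ-inducible cells were not called, at −0.46, −0.68 and −0.33, and CTRL cells rose by 2.36, 0.81 and 1.10. ELOVL7 was at 1.94, 2.13 and 1.65 CPM at 8 h and 0.550, 0.715 and 0.837 CPM at 24 h (log2 fold change −1.44, SE 0.269, edgeR adjusted p = 0.000208) and SLCO1B3 at 12.5, 13.4 and 13.3 CPM at 8 h and 4.05, 4.19 and 4.54 CPM at 24 h (log2 fold change −1.61, SE 0.104, edgeR adjusted p = 1.63e-10). Both of these fell in C/EBPδ-inducible cells with separate groups, and neither CTRL step was called.

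**Figure D5:**
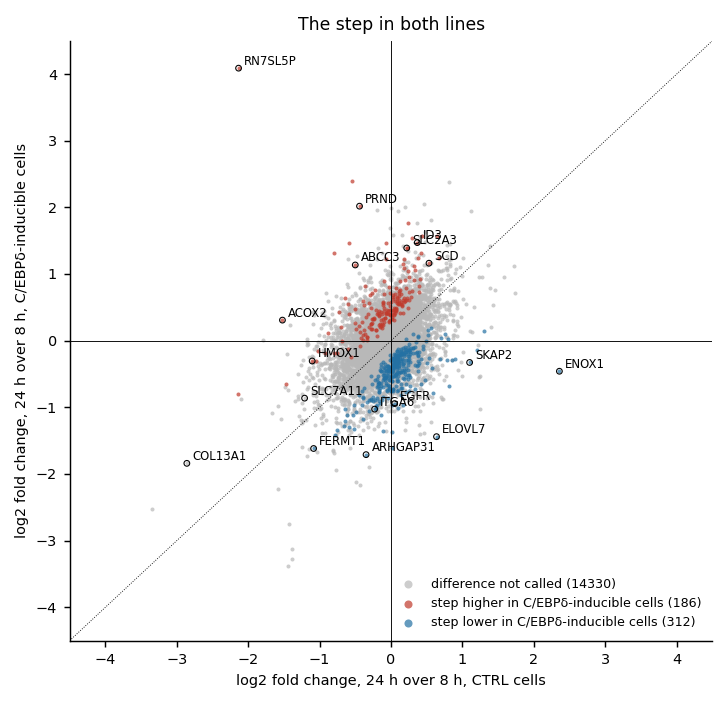
Step from 8 h to 24 h in both lines. The x axis is the log2 fold change in CTRL cells and the y axis that in C/EBPδ-inducible cells, each point is a gene tested in both lines and in the interaction, red and blue points have an interaction called higher or lower, gray points do not, and the dotted line marks equal steps. PRND lies above the line (2.02 against −0.44) and EGFR below it (−0.94 against 0.05).

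Set against the whole course, which shares no library with the step, the DEGs went either way. Of 2218 risers tested at 48 h against 0 h, 679 were higher at 48 h than at 0 h (30.6% of the risers and 23.4% of the genes higher at 48 h) and 623 were lower. Of 2349 genes that fell, 723 were lower at 48 h (30.8% and 24.1%) and 500 were higher. The background of that comparison was 5952 of 15394 genes in either direction (38.7%), that is, 19.1% higher and 19.5% lower, and across 15098 genes Pearson r was 0.183. SCD, SLC2A3, PRND and GDF15 were among the genes above their 0 h level at 48 h, with log2 fold changes of 1.73, 2.49, 2.05 and 2.34. EGFR, AXL, KRT8 and PIK3CG were below it, at −0.90, −1.16, −1.02 and −1.25. CXCL8 had means of 231 CPM at 0 h and 242 CPM at 48 h.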

How the data were processed

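Total RNA of C/EBPδ-inducible and CTRL MIA PaCa-2 cells was depleted of ribosomal RNA (KAPA RNA HyperPrep with RiboErase) and sequenced as single short reads. The authors trimmed the reads with Trimmomatic (0.36 in the submitters' notes), aligned them with HISAT2 to GRCh38 and counted them per gene with HTSeq on Ensembl annotation, and they deposited one table of raw counts for all 24 libraries. The strand setting is not given in the sources used here.

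Libraries were grouped by the line and time in their labels. Genes were filtered with filterByExpr, scaled by TMM and tested with the edgeR (4.0.16) quasi-likelihood test in R 4.3.3 on the libraries of the groups compared, with Benjamini-Hochberg adjustment over all genes tested and a false discovery rate of 0.01. The interaction of line and time was tested over the 12 libraries at 8 h and 24 h. CPM are TMM-scaled, and fold changes are fitted log2 values, higher at 24 h where positive. Symbols, biotypes and exon overlaps came from a GRCh38 annotation that matched 56558 of 60675 identifiers, and promoters from RefSeq. The edgeR fits of the step and of the interaction were also run on simulated counts, and the other comparisons and alternatives were not.

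Named genes were CEBPD, the 10 largest called steps in each direction with separate groups and a mean of at least 1 CPM, the 5 largest of each direction in the interaction and among genes low or high at 8 h or delayed, and up to 4 called members of each gene list in each direction, with further members that a list turns on. EREG, ID1, ITGA3, NET1 and SKIL are list members outside that rule, chosen after their values were seen, and EPCAM and VIM are markers of the line. Some genes that the rule names are not reported here. The motility genes are those the study singled out, and the epithelial and mesenchymal panel is its marker panel, with the symbol it gives as SCD1 among the epithelial markers read as SDC1. The members and lists were chosen with earlier results of these data known. Alternatives were DESeq2 (1.42.0), upper-quartile scaling, other filters, all libraries in one model, a replicate block, an analysis of variance, the kind of test the study names, here on log2(CPM + 1), a false discovery rate of 0.05 and leaving out each library. Counts of the 6 libraries of the step ranged from 12731237 to 22416507, and intervals and floors cover counting error only.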

Additional observations from a re-analysis of the deposited data

Results flagged for a closer look

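Of 163 named genes tested in the interaction, 53 had a step from 8 h to 24 h that differed between the lines by the test of the difference itself (edgeR interaction of line and time, false discovery rate 0.01). Of these, 10 were named for this difference and most others for the size of their step, so their share is not set against that of all genes (501 of 16332, 3.07%). The values are the log2 step in C/EBPδ-inducible cells minus that in CTRL cells.

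The step was higher in C/EBPδ-inducible cells for 29. The differences above 1 were those of RN7SL5P (6.21), LYZ (5.08), PRND (2.45), ACOX2 (1.83), ABCC3 (1.63), ENSG00000161149 (1.52), SLC2A3 (1.16) and ID3 (1.10). That of RN7SL5P rests on uneven libraries and that of LYZ on 8 h libraries of 0, 2 and 2 counts. Smaller differences were CDKN1A (0.97), ADM (0.96), SMAD6 (0.91), PFKFB4 (0.91), ID2 (0.89), HMOX1 (0.79), BHLHE40 (0.79), IER3 (0.72), DDIT4 (0.68) and SCD (0.62), followed by TXNIP (0.60), NFKBIA (0.59), ID1 (0.57), PGD (0.53), ARRDC2 (0.48), FASN (0.43), MT1X (0.42), FTH1 (0.40), TKT (0.39), AMOTL2 (0.38) and RPS28 (0.27).

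The step was lower for 24. The largest differences were those of ENOX1 (−2.83), ELOVL7 (−2.09), SLCO1B3 (−1.63), TUBB2B (−1.49), SKAP2 (−1.44), ARHGAP31 (−1.37), MALL (−1.26) and EGFR (−1.0). The others were ITGB4 (−0.96), KRT8 (−0.84), ITGA6 (−0.81), NR1D2 (−0.78), KRT18 (−0.70), AXL (−0.60), HBEGF (−0.59) and NUF2 (−0.58), and FERMT1 (−0.54), ETS1 (−0.47), ITGA3 (−0.47), ANLN (−0.42), DNAJC3 (−0.41), NET1 (−0.41), KLF6 (−0.37) and SARS1 (−0.27).

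Leaving out 1 library at a time moved the count of called differences between 261 (without the first CTRL library at 24 h) and 2075 (without the third CTRL library at 8 h). A difference between the lines in their response and one in their state before induction cannot be told apart here.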

How the results depend on the processing

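The 4591 DEGs of the step became 878 under the analysis of variance on log2(CPM + 1) and 3541 to 4263 when 1 library was left out, and no other alternative moved that count by over 1.5 times (3593 with all 24 libraries in the model, 3831 with DESeq2, 4661 with upper-quartile scaling, 6347 at a false discovery rate of 0.05). The 375 CTRL calls became 952 with no filter on low counts, 1374 with all 24 libraries, 0 by the analysis of variance (3420 genes had an edgeR unadjusted p under 0.05, and DESeq2 called 512) and 970 at a false discovery rate of 0.05. Leaving out a CTRL library gave 1195, 103 and 643 calls (without the first, the second and the third at 8 h) and 105, 96 and 74 (at 24 h). The 501 interaction calls became 826 with DESeq2, 1485 with no filter, 836 with all 24 libraries, 185 by the analysis of variance, 1554 at a false discovery rate of 0.05 and 261 to 2075 when 1 library was left out. The count fell to between 261 and 310 without any 1 of 9 of the 12 libraries. At 8 h against 0 h, 4693 calls became 3127 with all 24 libraries, and at 48 h against 24 h, 3724 became 2448 to 3629 when 1 library was left out, the lowest without the second at 48 h. The cause of these moves was not tested.

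Same-numbered libraries at 8 h and 24 h did not deviate together (r = −0.026, 0.016 and 0.00037 across genes), so the numbers are not taken as pairs. A replicate block gave 4587 calls in the step, 244 in CTRL cells and 262 in the interaction.

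Of 161 named genes with a tested step none changed direction under any alternative. The analysis of variance kept 80 on the same side of the threshold. DESeq2 did so for 158 and lost the calls of LAMB3 (adjusted p = 0.0352) and ELOVL6 (adjusted p = 0.0243). Leaving out 1 library ended the calls of 6 genes, namely BIRC5, ELOVL6, GSN, KIF20A, SC5D and VIM (−0.10 without the third library at 8 h). Depth limits low genes most, since 3 counts stand for 0.134 to 0.236 CPM.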
